A study of Mus musculus with 4 samples.

Results

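The basement membrane genes are 10 genes matched by symbol among the 24411 genes listed for each library. They encode 4 laminin chains (Lama1, Lama5, Lamb1 and Lamc1), the linker nidogen (Nid1), the α1 and α2 chains of type IV collagen (Col4a1 and Col4a2), the collagen-binding protein SPARC (Sparc), a collagen chaperone (Serpinh1) and a subunit of collagen prolyl 4-hydroxylase (P4ha2). RNA-seq was run on morulae of the outbred ICR mouse stock that had been given siRNA against Pwp1 (siPwp1, 2 libraries) or control siRNA (siControl, 2 libraries). Both groups came from in vitro fertilization, were electroporated as 1-cell embryos at 3 hpi and were grown in KSOM with bovine serum albumin until 72 hpi. Each library pooled 10 embryos, so differences between single embryos cannot be seen. Nothing in the labels states that the replicates were separate cultures, and p-values therefore measure only the spread between these libraries, which may be technical.

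A basement membrane is a thin sheet of matrix on which epithelial cells rest. Laminins are trimers of an α, a β and a γ chain that assemble on the cell surface. Nidogen bridges the laminin γ1 chain to a second network made of type IV collagen. Collagen chains need prolyl hydroxylation and the chaperone HSP47, the product of Serpinh1, to fold in the endoplasmic reticulum. In the mouse embryo these proteins are best known from the primitive endoderm and its derivative, the parietal endoderm, which lays down Reichert's membrane. Laminin β1 and γ1 chains are known to be made in the cleaving embryo before the α1 chain.

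The 4 libraries held between 28981358 and 48765229 expected counts, and 3 counts corresponded to 0.0594 to 0.104 CPM (counts scaled to library size), a floor that covers counting error only. Pwp1 itself stood at 36.9 and 37.2 CPM in the siPwp1 libraries and at 215 and 365 CPM in the siControl libraries, 7.83-fold lower with siPwp1, with a log2 fold change of -2.97 (SE 0.333). The drop passed DESeq2 (adjusted p = 1.47e-12) and did not pass edgeR (adjusted p = 0.2204). The morula label was checked with 6 pluripotency markers, of which Nanog led with 198 and 273 CPM in siPwp1 and 422 and 291 CPM in siControl. Both siPwp1 libraries were below both siControl libraries for 3 of these 6 (50%), against 14.1% of all tested genes. These were Nanog, Pou5f1 (56.5 and 54.5 CPM, against 79.2 and 57.7 CPM) and Tfcp2l1 (100 and 106 CPM, against 243 and 136 CPM). Tfcp2l1 had an unadjusted p of 0.0325 and an adjusted p = 0.9998 in edgeR. Sox2 was at 0.732 and 0.232 CPM in siPwp1 and at 8.16 and 0.205 CPM in siControl, high in siControl replicate 1 alone. The 8 trophectoderm markers summed to 468 and 180 CPM in siPwp1 replicates 1 and 2 and to 683 and 148 CPM in siControl replicates 1 and 2. Replicate 1 was thus the higher in both groups for this list. Among 9 markers of primitive and parietal endoderm, Dab2 (337 and 359 CPM in siPwp1, 390 and 395 CPM in siControl) and Gata6 (191 and 166 CPM, against 269 and 160 CPM) were abundant. Gata4 stood at 7.74 and 10.1 CPM in siPwp1 and at 2.53 and 5.92 CPM in siControl, higher in both siPwp1 libraries (log2 fold change 1.07, SE 0.535, edgeR adjusted p = 0.9998). It was the 1 of the 4 tested markers of this list with that arrangement (25%, against 14.7% of all tested genes). Dab2 was the 1 with both siPwp1 libraries lower (25%, against 14.1%). The median log2 fold change of the 4 was -0.21. The endoderm markers Sox17 and Foxa2 had at most 6 counts in any library, and Sox7 at most 28.

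Col4a1 and Col4a2 lie head to head on chromosome 8 (GRCm38), Col4a1 on the minus strand at 11198423 to 11312826 and Col4a2 on the plus strand at 11312805 to 11449287. Their promoter windows are printed because the pair shares a stretch of DNA, and the letters alone show no regulation. The windows run from 250 bases before to 50 bases after each RefSeq start site (RefSeq on GRCm38.p6), chr8:11312777-11313076 for Col4a1 on the minus strand and chr8:11312555-11312854 for Col4a2 on the plus strand. Each is written 5′ to 3′ on its own gene's strand, and the capitals mark the 78 bases that both windows hold, as reverse complements of each other.
Col4a1: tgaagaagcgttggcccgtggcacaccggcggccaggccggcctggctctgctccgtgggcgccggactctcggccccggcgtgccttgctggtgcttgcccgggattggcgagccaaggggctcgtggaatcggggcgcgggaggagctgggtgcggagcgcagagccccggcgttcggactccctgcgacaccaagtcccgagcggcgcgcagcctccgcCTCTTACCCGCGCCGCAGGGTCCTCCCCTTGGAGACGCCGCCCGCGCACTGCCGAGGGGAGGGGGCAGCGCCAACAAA
Col4a2: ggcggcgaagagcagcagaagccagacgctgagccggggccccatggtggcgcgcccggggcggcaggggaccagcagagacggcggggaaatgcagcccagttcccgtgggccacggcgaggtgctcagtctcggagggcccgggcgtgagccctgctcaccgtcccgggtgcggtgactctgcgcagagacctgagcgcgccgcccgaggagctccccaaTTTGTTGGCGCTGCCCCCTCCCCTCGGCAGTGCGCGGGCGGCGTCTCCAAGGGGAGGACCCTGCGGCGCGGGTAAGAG
The start sites are 21 bases apart and each lies inside the first exon of the other gene, so the first 22 bases of the 2 transcripts are complementary. The shared stretch is 73.1% G or C and holds 9 CpG dinucleotides.

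RefSeq promoter windows of this kind were matched for 8 of the 10 genes; Lama1 and Lamc1 are named only. Their G and C content ran from 55.3% (Sparc) to 74.0% (Col4a1), against a median of 52.7% over all 32851 windows of 300 bases. The GC box GGGCGG, searched on both strands with overlaps counted, was present in 7 of the 8 windows and in 35.7% of all windows. Lama5 and P4ha2 held 4 copies each, Col4a2 held 3, Lamb1 held 2, and Sparc held none. The letters CCAAT, on either strand, were found in the windows of Col4a1, Col4a2, Lamb1 and Nid1 and in 37.4% of all windows, and TATAAA in none of the 8 and in 13.6% of all windows. These matches describe letters in a window, not binding.

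Levels between genes were compared in TPM, a measure of transcript abundance that the authors scaled by effective gene length within each library. Nid1 was the most abundant of the 10 genes, with a mean of 21 TPM over the 4 libraries and the first rank in each of them. It made up 40.9% and 55.6% of the summed TPM of the 10 genes in the siPwp1 libraries and 44.1% and 54.0% in the siControl libraries. P4ha2 followed at a mean of 8.46 TPM and Lamb1 at 5.98 TPM, and the ranges of these 2 overlapped, with P4ha2 above Lamb1 in 3 of 4 libraries. Lamc1 came next at 2.48 TPM, below Lamb1 in all 4 libraries. Sparc (1.84 TPM), Col4a1 (1.52 TPM), Lama5 (1.16 TPM) and Col4a2 (0.828 TPM) had overlapping ranges, and neighbours in this order could not be told apart beyond their spread. Serpinh1 and Lama1 were at the bottom, at means of 0.025 and 0.0225 TPM.

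**Figure D1:**
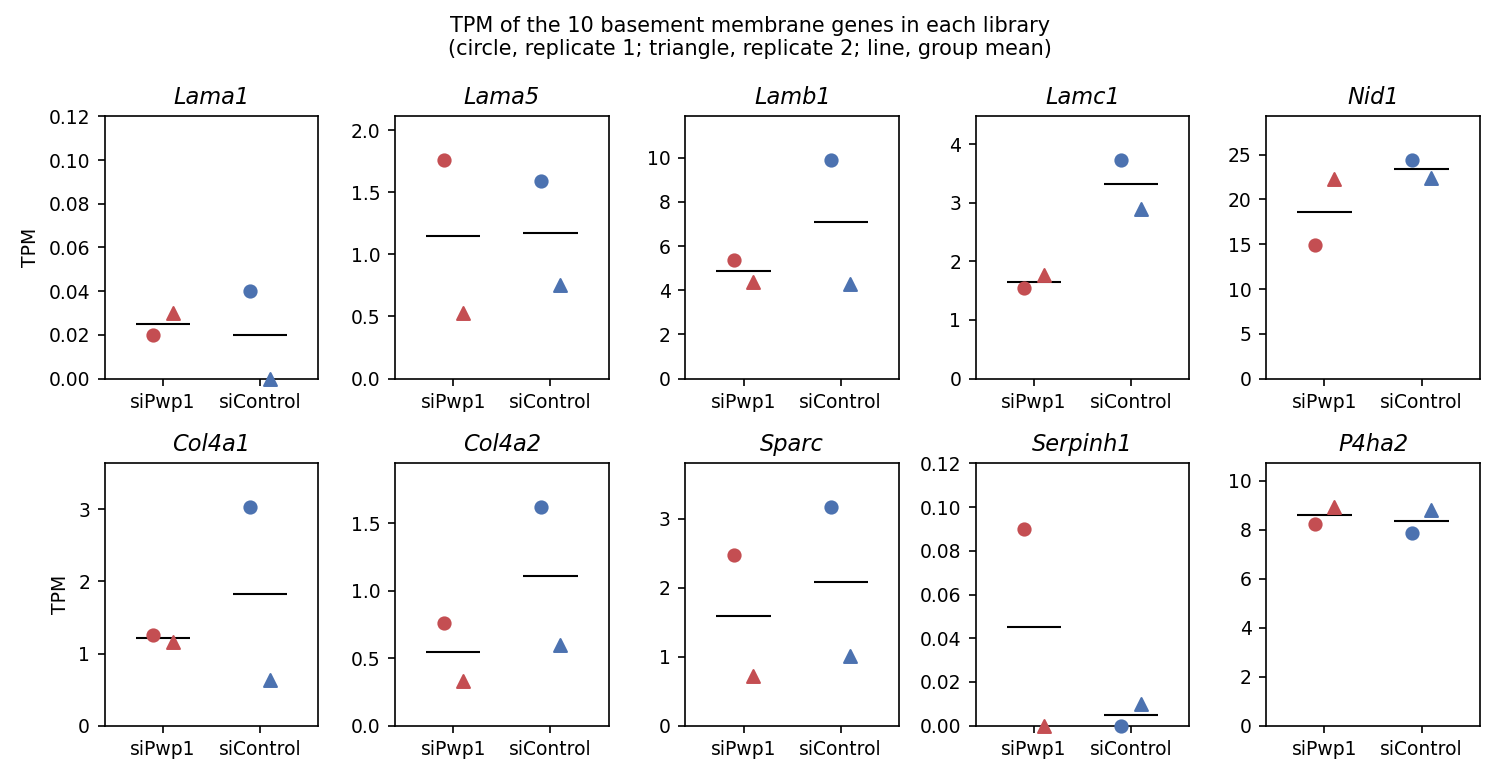
TPM of each of the 10 genes in siPwp1 (red, left) and siControl (blue, right), with circles for replicate 1, triangles for replicate 2 and lines for group means; each panel has its own linear axis from 0. The Lamc1 points of siPwp1 (1.55 and 1.76 TPM) lie below those of siControl (3.73 and 2.90 TPM), those of Nid1 touch (22.26 TPM in siPwp1 replicate 2, 22.36 TPM in siControl replicate 2), and in the other 6 tested genes the groups overlap.

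The summed TPM of the 10 genes was 36.4 and 40.1 in siPwp1 and 55.3 and 41.4 in siControl. Replicate 1 of siControl was the high one, and the groups did not overlap, with siControl replicate 2 just above siPwp1 replicate 2. The type IV collagen chains together summed to 2.02 and 1.49 TPM in siPwp1 and to 4.65 and 1.23 TPM in siControl. The 4 laminin chains summed to 8.70 and 6.68 TPM in siPwp1 and to 15.3 and 7.94 TPM in siControl.

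**Figure D2:**
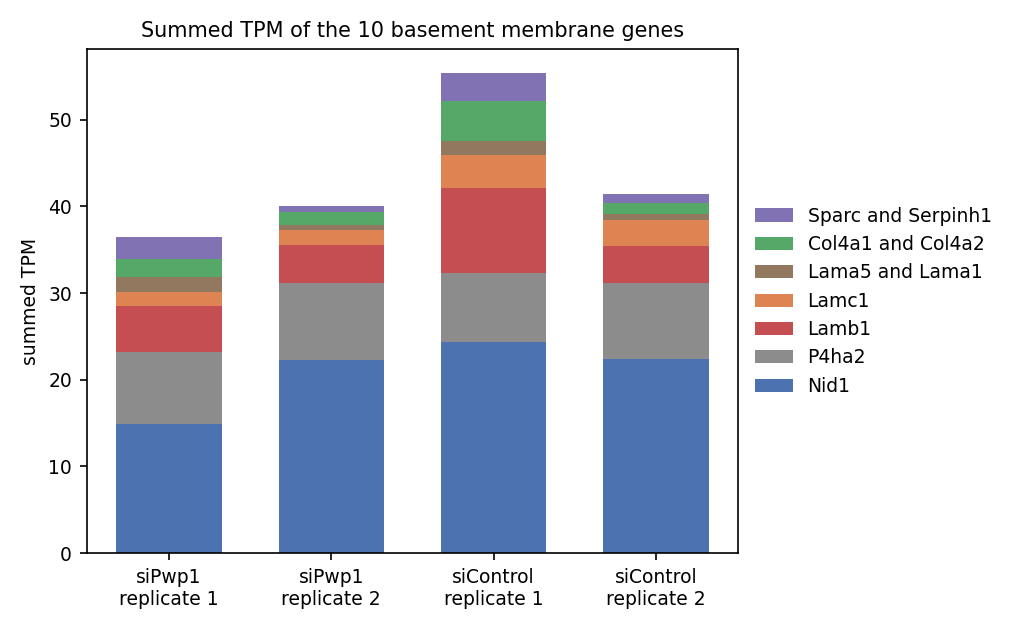
Stacked bars of the TPM of the 10 genes in each library, siPwp1 left and siControl right, coloured by gene or gene pair. The bar of siControl replicate 1 is the tallest at 55.3 TPM, and Nid1 is the largest block in every library.

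Setting siPwp1 against siControl asks which of these genes changed when Pwp1 was the siRNA target. Of the 8 genes that could be tested, 0 passed. The test, edgeR's quasi-likelihood test with Benjamini-Hochberg adjustment over 13585 genes, called 0 genes in all (0% of those tested). At unadjusted p under 0.05 it had 250 genes higher (1.84%) and 112 lower (0.824%), and DESeq2 called 44 genes (0.324%). Of the 10 genes, 8 passed the filter on low counts, with at least 49 counts in each library, and 2 did not. Of these 8, only Lamc1 had an unadjusted p below that limit, and 0 were called with DESeq2. Lamc1 was also the 1 gene of 8 (12.5%) with both siPwp1 libraries below both siControl libraries in CPM, an arrangement found for 14.1% of all tested genes, and 0 of 8 had the opposite one, found for 14.7%. Fitted log2 fold changes were below 0 for 7 of the 8, with a median of -0.49, against 6803 of 13585 (50.1%) and a median of 0.00 over all tested genes. Without siControl replicate 1, 3 of the 8 were below 0 and the median was 0.11 (0.03 over all tested genes). Without siControl replicate 2 the median of the 8 was -1.06, and the median over all tested genes was not taken for that fit. The median log2 fold change was -0.59 over the 7 tested trophectoderm markers and -0.50 over the 6 pluripotency markers. Over the 4 tested markers of primitive and parietal endoderm it was -0.21. The part of these markers in the values of the 8 genes was not tested. In such bulk libraries fewer cells of a type and less RNA per cell cannot be told apart.

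**Figure D3:**
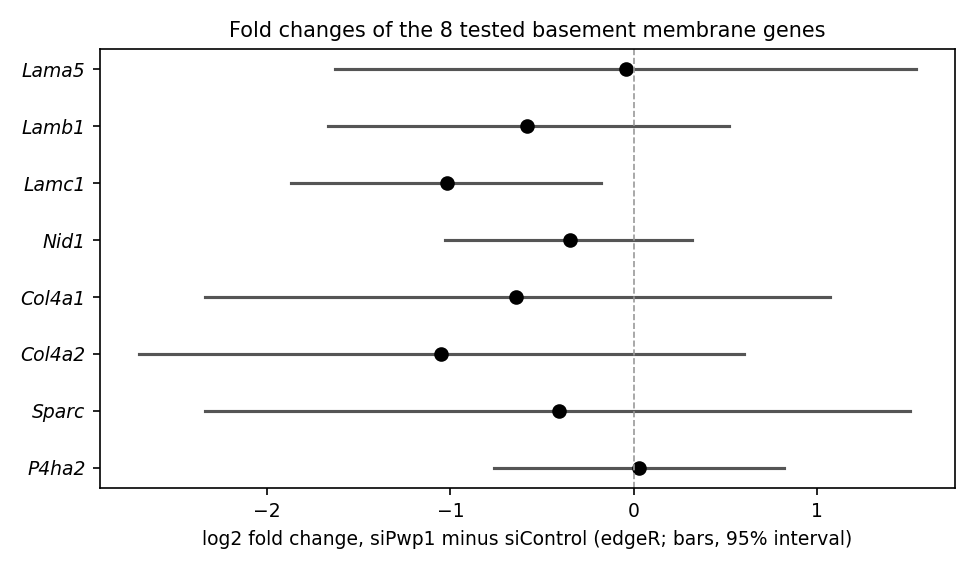
Log2 fold change of siPwp1 minus siControl for the 8 tested genes (points, edgeR), with 95% intervals from the fit as bars and a dashed line at 0. The interval of Lamc1 runs from -1.87 to -0.18, and the other 7 intervals include 0.

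Lamc1 encodes the γ1 chain, found in most laminin trimers. It stood at 1.55 and 1.76 TPM (11.3 and 12.3 CPM) in the siPwp1 libraries and at 3.73 and 2.90 TPM (27.9 and 20.1 CPM) in the siControl libraries. Both siPwp1 libraries were low, and the groups did not overlap. The group values were 11.8 ± 0.749 CPM in siPwp1 and 24.0 ± 5.47 CPM in siControl (SD, n = 2 each), with a log2 fold change of -1.02 (SE 0.355). The unadjusted p of edgeR was 0.0239 and its adjusted p = 0.9998; DESeq2 gave an adjusted p = 0.69. With 1 library left out, the value ranged from -0.77 without siControl replicate 1 to -1.24 without siControl replicate 2. With limma on log2(TPM + 1), over genes of at least 1 TPM in at least 2 libraries, it was -0.7 (unadjusted p = 0.0512). The gene lies on chromosome 1 at 153218922 to 153332786 on the minus strand, with up to 28 exons, and no exon of another gene overlaps it on the other strand.

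Lamb1 encodes the β1 chain, the partner of γ1 in the laminins of the early embryo. It stood at 5.37 and 4.36 TPM in siPwp1 and at 9.90 and 4.29 TPM in siControl. The siControl libraries differed from each other by more than the group means did, and siControl replicate 2 was the lowest of the 4. The log2 fold change was -0.58 (SE 0.462, edgeR adjusted p = 0.9998), with a 95% interval from -1.67 to 0.52, and turned to 0.22 without siControl replicate 1. Lamb1 lies on chromosome 12 at 31265234 to 31329644 on the plus strand.

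Of the α chains, Lama5 was measured and Lama1 was close to the floor. Lama5 encodes the α5 chain, which completes laminin trimers with β1 and γ1 in many epithelia. It stood at 1.76 and 0.53 TPM in siPwp1 and at 1.59 and 0.75 TPM in siControl. Replicate 1 was the higher in both groups and the groups overlapped, with a log2 fold change of -0.04 (SE 0.667, edgeR adjusted p = 0.9998). The 95% interval, from -1.63 to 1.54, leaves changes of 2-fold in either direction possible. The value was 0.67 without siControl replicate 1 and 0.59 without siPwp1 replicate 2. Lama1 encodes the α1 chain, the main α chain of Reichert's membrane. It had 10 and 8 counts in siPwp1 and 10 and 0 counts in siControl, the last allowing up to 0.0683 CPM at this depth. With so few counts it was not tested and no fold is given.

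Nid1, on chromosome 13 at 13437551 to 13512269 on the plus strand, stood at 14.9 and 22.26 TPM in siPwp1 and at 24.41 and 22.36 TPM in siControl. Replicate 1 of siPwp1 was low, while the other 3 libraries were close together; on the TPM scale the groups were just apart, and in CPM (85.2 and 123 in siPwp1, 143 and 122 in siControl) they overlapped. The log2 fold change was -0.35 (SE 0.283, edgeR adjusted p = 0.9998), with a 95% interval from -1.03 to 0.32. Its level is uncertain to the extent that 143 exonic bases are overlapped by Gm48682 on the other strand, since the strand setting of the counting is not stated.

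Col4a1 and Col4a2 encode the chains that form the common type IV collagen trimer of α1 and α2. Col4a1 stood at 1.26 and 1.16 TPM in siPwp1 and at 3.03 and 0.63 TPM in siControl. Both siPwp1 libraries lay between the 2 siControl libraries. Its log2 fold change was -0.64 (SE 0.718, edgeR adjusted p = 0.9998) and turned to 0.98 without siControl replicate 1. Col4a2 stood at 0.76 and 0.33 TPM in siPwp1 and at 1.62 and 0.60 TPM in siControl, so that replicate 1 was the higher in both groups. Its log2 fold change was -1.05 (SE 0.694, edgeR adjusted p = 0.9998), with a value of -0.09 without siControl replicate 1. In CPM, siControl replicate 1 was the highest library for both genes, as it was for 6 of the 8 tested genes (75%) and for 31.2% of all tested genes. Col4a2 shares 43 exonic bases with Gm15419 and 22 with Col4a1, and reads from these bases could not be assigned without strand. The TPM ratio of Col4a1 to Col4a2 was 1.66 and 3.52 in siPwp1 and 1.87 and 1.05 in siControl, and the groups overlapped.

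Sparc encodes a matrix glycoprotein that binds collagen. It stood at 2.47 and 0.72 TPM in siPwp1 and at 3.17 and 1.01 TPM in siControl. Replicate 1 was over 3 times replicate 2 in each group, and the groups overlapped. The log2 fold change was -0.41 (SE 0.81, edgeR adjusted p = 0.9998) and turned to 0.71 without siControl replicate 1 and to 0.23 without siPwp1 replicate 2.

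Of the genes of collagen folding, P4ha2 was the second most abundant of the 10 and Serpinh1 was near the floor. P4ha2, the catalytic α2 subunit of a prolyl 4-hydroxylase, stood at 8.25 and 8.92 TPM in siPwp1 and at 7.86 and 8.82 TPM in siControl. The 4 libraries were close together and the groups overlapped, the narrowest relative range among the 8 tested genes. Its log2 fold change was 0.03 (SE 0.332, edgeR adjusted p = 0.9998), with a 95% interval from -0.76 to 0.82. Serpinh1 had 9 and 0 counts in siPwp1 and 0 and 1 counts in siControl, where a count of 0 allows up to 0.0996 CPM in siPwp1 replicate 2 and 0.104 CPM in siControl replicate 1. The morulae thus held transcripts of type IV collagen in all 4 libraries, with the transcript of its chaperone detected above 3 counts in 1.

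Ratios between chains were taken per library from TPM. Lamb1 over Lamc1 was 3.46 and 2.48 in siPwp1 and 2.65 and 1.48 in siControl, and the groups overlapped. Lama5 over Lamc1 was 1.14 and 0.301 in siPwp1 and 0.426 and 0.259 in siControl, so that α5 transcripts were fewer than γ1 transcripts in 3 of 4 libraries. Nid1 over Lamc1 was 9.61 and 12.6 in siPwp1 and 6.54 and 7.71 in siControl, and the groups did not overlap. The low Lamc1 values of siPwp1 enter this ratio, so it is not a separate result for Nid1. An exact two-sided permutation test of 2 against 2 libraries cannot go below p = 0.333, so no p is given for these ratios.

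The replicates differed within each group, and for several genes by more than the groups did. Replicate 2 was below replicate 1 in both groups for 5 of the 8 tested genes (Lama5, Lamb1, Col4a1, Col4a2 and Sparc), against 33.9% of all tested genes. For Sparc the log2 CPM difference of replicate 2 minus replicate 1 was -1.80 in siPwp1 and -1.73 in siControl, and for Lama5 it was -1.78 and -1.19. For Col4a1 it was -0.17 in siPwp1 and -2.35 in siControl. P4ha2 showed almost none, at 0.06 in both groups. Trophectoderm markers also differed between the replicates: Krt18 stood at 162 and 25.6 CPM in siPwp1 and at 211 and 15.4 CPM in siControl, and Krt8 at 116 and 21.3 CPM against 193 and 15.6 CPM. All but Tfap2c of the 7 tested trophectoderm markers were higher in replicate 1 of both groups, and Elf5 had 7 counts in siControl replicate 1 and 0 elsewhere. Their part in the values of the basement membrane genes was not tested.

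**Figure D4:**
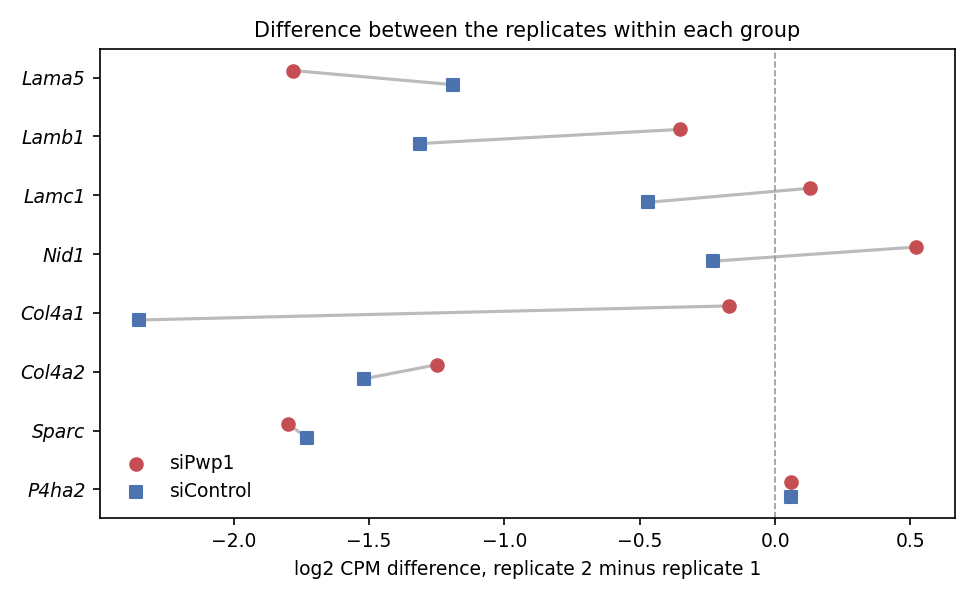
Log2 CPM of replicate 2 minus replicate 1 within siPwp1 (red circles) and siControl (blue squares) for the 8 tested genes, with a dashed line at 0. Lama5, Sparc and Col4a2 lie below -1 in both groups, Col4a1 and Lamb1 do so in siControl alone, and P4ha2 lies at 0.06 in both.

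Markers of cells that could adhere to embryos or be carried over were counted as well. Of 11 cumulus and granulosa markers, 6 had 3 counts or fewer in all 4 libraries, and Inhba, Ptx3 and Cyp19a1 had 0. Amhr2 made up nearly all of the sum, at 11.4 and 19.0 CPM in siPwp1 and 5.24 and 10.4 CPM in siControl. The list summed to 11.7 and 19.6 CPM in siPwp1 and to 5.48 and 10.8 CPM in siControl. Of 8 fibroblast markers, Col3a1, Dcn and Lum had 0 counts in every library, and the list summed to 7.11 and 3.55 CPM in siPwp1 and to 2.19 and 1.73 CPM in siControl, led by Postn. Postn, the 1 tested marker of this list, was at 6.29 and 2.72 CPM in siPwp1 and at 1.32 and 1.62 CPM in siControl (log2 fold change 1.62, SE 0.64, edgeR unadjusted p = 0.04, adjusted p = 0.9998). The 6 endothelial markers summed to 6.65 and 5.91 CPM in siPwp1 and to 13.2 and 12 CPM in siControl, nearly all of it Pecam1, which pluripotent cells of the mouse also express. The 8 blood and immune markers summed to 44.0 and 44.9 CPM in siPwp1 and to 12.3 and 34.8 CPM in siControl, nearly all of it the globin gene Hba-a2 (39.3 and 39.1 CPM, against 11.3 and 31.7 CPM). The globin genes Hbb-bs and Hbb-bt had 0 counts in every library and the leukocyte gene Ptprc at most 10, and reads of Hba-a2 may be shared with its near-identical copy Hba-a1. Cd52 was at 2.77 and 1.59 CPM in siPwp1 and at 0.521 and 0.432 CPM in siControl (log2 fold change 2.19, SE 0.818, edgeR unadjusted p = 0.0322, adjusted p = 0.9998). Coro1a was at 1.9 and 1.76 CPM against 0.243 and 2.02 CPM. Of the 4 tested markers of this list, 2 (50%, against 14.7% of all tested genes) had both siPwp1 libraries higher and 0 (0%, against 14.1%) both lower. Whether such cells add to the basement membrane genes was not tested.

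The wider pathway was read from 8 lists with 90 genes outside the 10, of which 72 were tested. edgeR called 0 of them over all genes and DESeq2 called 0, with 2 higher and 0 lower at unadjusted p under 0.05. Both siPwp1 libraries were above both siControl libraries for 17 of the 72 (23.6%, against 14.7% of all tested genes) and below them for 7 (9.72%, against 14.1%). The median log2 fold change was 0.03, beside 0.00 over all tested genes.

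Other laminin chains were scarce. All 7 together summed to 1.40 and 1.65 TPM in siPwp1 and to 2.54 and 1.24 TPM in siControl, and Lamb3 had 0 counts throughout. Lama3, a chain of epithelial laminins, had 2.53 and 2.32 CPM in siPwp1 and 6.94 and 1.71 CPM in siControl. Lama2, known from muscle, had 0.376 and 0.299 CPM in siPwp1 and 0.0347 and 0.0455 CPM in siControl, close to the floor. Lamb2 (1.44 and 0.93 CPM in siPwp1, 3.33 and 0.637 CPM in siControl) and Lamc3 (0.158 and 0.764 CPM, against 0 and 0.273 CPM) overlapped between the groups. Of the other type IV collagen chains, Col4a3 to Col4a6, 1 of 4 was tested (Col4a3, at 0.732 and 0.0332 CPM in siPwp1 and 0.347 and 0 CPM in siControl), and none exceeded 0.1 TPM in any library. Lama2, Lama3, Lamc3 and Col4a3 are uncertain because exons of antisense genes overlap them.

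Of 16 other basement membrane components, 10 were tested. Both siPwp1 libraries were higher for 4 of them (40%, against 14.7% of all tested genes) and lower for 1 (10%, against 14.1%). Smoc2, a relative of SPARC, was at 1.52 and 0.83 CPM in siPwp1 and at 0.0694 and 0.273 CPM in siControl (log2 fold change 2.73, SE 1.23, edgeR adjusted p = 0.9998). Frem2 had 2.63 and 4.75 CPM in siPwp1 and 0.694 and 2.18 CPM in siControl. The second nidogen gene, Nid2, was at 3.13 and 2.32 CPM in siPwp1 and at 1.91 and 0.865 CPM in siControl, where its exons share 437 bases with Rtraf on the other strand. Fn1, which encodes fibronectin, was at 3.64 and 4.98 CPM in siPwp1 and at 8.71 and 4.82 CPM in siControl.

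The 15 genes of collagen hydroxylation and glycosylation summed to 425 and 339 TPM in siPwp1 and to 449 and 367 TPM in siControl. Ppib and P4hb, general folding enzymes of the endoplasmic reticulum, made up most of that sum, with 289.11 and 215.35 TPM in siPwp1 and 306.0 and 234.82 TPM in siControl for Ppib, and 83.29 and 77.97 TPM against 80.25 and 85.91 TPM for P4hb. Others, such as P3h3 (0.34 and 0.28 TPM in siPwp1, 0.28 and 0.18 TPM in siControl), lay below Col4a1. Of 13 tested, 2 (15.4%, against 14.7% of all tested genes) had both siPwp1 libraries higher and 1 (7.69%, against 14.1%) both lower. Plod1, a lysyl hydroxylase gene, was at 5.25 and 3.42 CPM in siPwp1 and at 11.2 and 6.03 CPM in siControl (log2 fold change -0.99, SE 0.505, edgeR adjusted p = 0.9998). Of the collagen galactosyltransferase genes, Colgalt1 was at 10.4 and 9.53 CPM in siPwp1 and at 23.4 and 9.92 CPM in siControl, and Colgalt2 at 0.376 and 2.09 CPM against 0.104 and 0 CPM. The prolyl 3-hydroxylase gene P3h1 was at 2.81 and 2.96 CPM in siPwp1 and at 0.521 and 2.18 CPM in siControl. The list of collagen export and crosslinking had 13 tested genes, not all of them specific to collagen. In it, the coat gene Sec31a was at 29.3 and 18.8 CPM in siPwp1 and 46.9 and 28.7 CPM in siControl, and the cargo receptor gene Lman1 at 37.2 and 28.9 CPM against 54.6 and 35.9 CPM. Lox, a lysyl oxidase gene, was at 0.614 and 1.99 CPM in siPwp1 and at 0 and 0.41 CPM in siControl, and the peroxidasin gene Pxdn at 1.29 and 0.565 CPM against 0.486 and 0 CPM. Both siPwp1 libraries were higher for 2 of these 13 (15.4%, against 14.7% of all tested genes) and lower for 2 (15.4%, against 14.1%).

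Receptors for laminin and collagen were expressed beside the matrix genes, at 38.9 and 35.7 TPM summed over 11 genes in siPwp1 and 44.5 and 34.1 TPM in siControl. Of 9 tested, 3 (33.3%, against 14.7% of all tested genes) had both siPwp1 libraries higher and 0 (0%, against 14.1%) both lower. Ddr2, a receptor tyrosine kinase for collagen, was at 30.3 and 36.2 CPM in siPwp1 and at 3.54 and 14.0 CPM in siControl. The siPwp1 libraries were both high, with a log2 fold change of 1.92 (SE 0.623), an unadjusted p of 0.0183 and an edgeR adjusted p = 0.9998. Its exons share 90 bases with 3110045C21Rik on the other strand. Itga1, a collagen-binding integrin gene, was at 5.78 and 6.51 CPM in siPwp1 and at 3.23 and 4.25 CPM in siControl. Itgb1, which encodes the β1 subunit shared by most of these integrins, was at 76.0 and 66.6 CPM against 102 and 74.0 CPM, and the dystroglycan gene Dag1 at 26.3 and 17.7 CPM against 46.9 and 18.5 CPM.

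The enzymes that build the laminin-binding sugar of dystroglycan (11 of 11 tested) had a median log2 fold change of 0.04. Both siPwp1 libraries were higher for 3 of these genes (27.3%, against 14.7% of all tested genes) and lower for 2 (18.2%, against 14.1%). B4gat1 was at 4.97 and 3.35 CPM in siPwp1 and 3.02 and 1.71 CPM in siControl and Rxylt1 (listed as Tmem5) at 47.4 and 49.3 CPM against 53.9 and 69.2 CPM. Matrix proteases and their inhibitors (9 of 10 tested) were low, summing to 8.09 and 4.80 TPM in siPwp1 and to 7.03 and 3.42 TPM in siControl. Among them, Mmp9 was at 0.376 and 0.365 CPM in siPwp1 and 0.0694 and 0.0228 CPM in siControl, Plat at 0.455 and 0.399 CPM against 1.84 and 0.546 CPM, and Timp1 at 1.6 and 1.33 CPM against 1.15 and 0.546 CPM. Mmp2 was at 0.792 and 0 CPM in siPwp1 and 0.278 and 0 CPM in siControl.

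By profile over the 4 libraries, the tested genes nearest to the mean centred log2 CPM of the 8 basement membrane genes were Tmem256, Pgls, Impact, Xlr3a and Cat, at Euclidean distances of 0.0423 to 0.0822 among 6782 candidates with a mean of 10 CPM or more. The mean profile was 0.06 and -0.52 in siPwp1 and 0.77 and -0.32 in siControl. The 8 genes themselves lay at 0.223 (Lamb1) to 1.04 (P4ha2) from it, so they did not share 1 profile. With 4 libraries such likeness is a description only.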

How the data were processed

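The authors' deposited files give RSEM expected counts per gene, not normalized, TPM scaled within each library, and FPKM, with gene length in bases, per the file headers. STAR 2.7.10, RSEM 1.3.3 and mm10 are named, per the submitters' processing notes. The strand setting and annotation were not stated. Exons on the other strand overlap further named genes, such as Ppib (825 bases, Snx22), Colgalt1 (495 bases, Unc13a) and Fn1 (292 bases, Apol7d). Their levels are uncertain to that extent. FPKM in the deposited files were not used.

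Expected counts were rounded and tested with edgeR 4.0.16 (R 4.3.3): filterByExpr with a minimum count of 10, TMM, quasi-likelihood test with group as the single term, two-sided, Benjamini-Hochberg adjustment over 13585 genes, threshold 0.05. CPM are scaled by TMM. Each SE was derived as |log2 fold change| divided by √F, and intervals use the fit's degrees of freedom (6.84). Profiles use log2 CPM with a prior count of 2. Alternatives used DESeq2 1.42.0 and limma 3.58.1. The scripts were tested on simulated data.

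Beside the 10 genes, the rule named up to 4 genes per list with the smallest p, up to 3 top markers per marker list and the 5 genes nearest in profile; the other markers named (Postn, Pecam1, Sox7 and those at or near 0) include some picked after values were seen. Members and lists were chosen with earlier results of these data known. Some genes that this rule names are not reported here. Symbols of 3 list genes were matched through RefSeq synonyms. Positions are from GENCODE M21 on GRCm38, the assembly mm10 names.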

Additional observations from a re-analysis of the deposited data

How the results depend on the processing

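Under the 13 alternatives, edgeR, DESeq2 and limma called 0 of the basement membrane genes. The count over all genes, 0 higher and 0 lower, became 99 and 7 with no filter, 42 and 2 with DESeq2, and 71 and 9 with the replicate block, and ranged from 5 to 130 higher and from 1 to 18 lower when 1 library was left out; prior degrees of freedom differed between these fits, which limits how these counts can be set side by side. The replicate numbers share only a number in the labels; deviations of same-numbered libraries correlated at 0.317 across genes. With the replicate block Lamc1 had a log2 fold change of -1.01 (edgeR adjusted p = 0.2631) and Col4a2 -1.0 (adjusted p = 0.4694), and of the genes named outside the 10, Pwp1 (adjusted p = 0.000208) and Ddr2 (adjusted p = 0.0307) passed.

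Directions turned only with a library left out. The log2 fold change ranged from -1.21 to 0.67 for Lama5, from -1.09 to 0.22 for Lamb1, from -1.39 to 0.98 for Col4a1 and from -1.61 to 0.71 for Sparc, and Lamc1, Nid1 and Col4a2 stayed below 0. Col4a2 could not be fitted under the stricter filter of 5 CPM or with limma on genes of at least 1 TPM. The cause was not tested. With 2 libraries a group, intervals span more than 2-fold for each of the tested basement membrane genes.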
